A study of Mus musculus with 3 samples.

Results

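The cells described here were taken from the adult mouse lacrimal gland (LG) by transcripts of a γδ T cell receptor chain or of the cytokine IL-17A. A cell was a member when it held at least 1 unique molecular identifier (UMI, a counted RNA molecule) of Tcrg-C1, or at least 1 of Il17a together with at least 1 of Cd3d, Cd3e or Cd3g. It also had to hold 0 UMIs of each of Epcam, Col1a1, Pecam1 and Csf1r, which mark epithelium, fibroblasts, endothelium and macrophages. In all, 98 of 19592 kept cells were members, and 70 of them held Tcrg-C1. The other 28 were taken by Il17a with Cd3 alone. As the rule reads Tcrg-C1, Il17a and the Cd3 genes, their levels are given as a description with no test.

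γδ T cells carry a receptor built from a γ and a δ chain in place of the α and β chains of conventional T cells, and they settle in mucosal and barrier tissues. A part of them leaves the thymus already committed to IL-17 production with the transcription factor c-MAF among its regulators, and responds to IL-1β and IL-23 without need for peptide presented on MHC. IL-17A acts through the receptor chains IL-17RA and IL-17RC on epithelial and stromal cells, which answer with neutrophil-attracting chemokines and antimicrobial proteins. αβ T cells can make IL-17A too, so Il17a by itself does not name a receptor type.

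The data comprised 3 libraries of C57BL/6J LGs made with the 10x Genomics 3′ chemistry, 1 Female (Female 1) and 2 Male (Male 1 and Male 2), each from a pool of 3 mice aged 2 months. The labels give no treatment and no genetic change, and dead cells were depleted with no sort for a cell type. The Female library was made at another core and on another day than both Male libraries, so the sex, the core and the day of preparation cannot be told apart, and no sex test was made. Cells were kept above 500 UMIs and 200 genes with under 15% mitochondrial UMIs, which left 8298, 5582 and 5712 cells in Female 1, Male 1 and Male 2. Their median depths were 3302, 1891 and 1879 UMIs per cell. Between 11 and 17 cell barcodes were shared by any pair of libraries, and no member was among them.

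The γ chain locus lies on chromosome 13 (mm10) and holds 4 constant genes. Tcrg-C1 is read by 3′ counting next to close relatives, so stretches of the first constant exon of each gene are shown, from base 11 to base 130, read from GENCODE M21 transcripts and the GRCm38 genome, with capitals for bases unlike Tcrg-C1.
Tcrg-C1 (chr13:19214113-19214232, + strand): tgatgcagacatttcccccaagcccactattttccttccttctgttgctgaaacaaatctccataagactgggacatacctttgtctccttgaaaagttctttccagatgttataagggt
Tcrg-C2 (chr13:19307422-19307541, − strand): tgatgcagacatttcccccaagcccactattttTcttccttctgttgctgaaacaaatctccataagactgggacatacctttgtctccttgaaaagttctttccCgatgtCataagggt
Tcrg-C3 (chr13:19260895-19261014, + strand): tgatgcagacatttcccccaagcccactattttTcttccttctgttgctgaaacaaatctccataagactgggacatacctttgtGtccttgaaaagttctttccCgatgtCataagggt
Tcrg-C4 (chr13:19344568-19344687, + strand): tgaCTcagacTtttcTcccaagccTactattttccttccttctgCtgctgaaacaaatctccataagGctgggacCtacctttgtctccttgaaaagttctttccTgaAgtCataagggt
Tcrg-C2 differed from Tcrg-C1 at 3 of these 120 bases, Tcrg-C3 at 4 and Tcrg-C4 at 11. Over the whole Tcrg-C1 transcript, 34.2% of the 50-base windows also occurred in another constant gene, and over its last 300 bases, which 3′ counting mostly reads, 21.9% did, against 0% for Tcrg-C4 in both. Reads from shared windows fit more than 1 of Tcrg-C1, Tcrg-C2 and Tcrg-C3 by sequence, and how they were counted was not tested. Trdc, the single δ constant gene (chr14:54142851-54148868, + strand), was not part of this sequence comparison and was not used by the rule.

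The members made up a larger share of the Female library than of either Male library. They numbered 72 of 8298 cells in the Female library (0.868%, exact 95% binomial interval 0.680% to 1.09%), 15 of 5582 in Male 1 (0.269%, 0.150% to 0.443%) and 11 of 5712 in Male 2 (0.193%, 0.0962% to 0.344%). Among T cells, taken as the members and the 318 other cells with a Cd3 UMI, the shares were 34.1% (27.8% to 40.9%), 19.2% (11.2% to 29.7%) and 8.66% (4.40% to 15.0%). The Female interval did not meet either Male interval for the share of kept cells. For the share of T cells it met that of Male 1 but not that of Male 2. The intervals cover counting error only, and depth moves with these shares: the members held a median of 2316 UMIs in the Female library, 1299 in Male 1 and 1038 in Male 2. When each cell was first thinned to 1000 UMIs, Male 1 had 0.113% of cells and 11.1% of T cells as members, while the Female library had 0.729% and 32.4%.

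Most members rested on few molecules of the genes that chose them. Tcrg-C1 was found in 60, 6 and 4 members of Female 1, Male 1 and Male 2, with 97, 7 and 4 UMIs, a median of 1 per positive cell and at most 5. Exactly 1 Tcrg-C1 UMI was held by 43 of its 70 cells, which lie just inside the rule. Il17a was found in 36, 11 and 7 members, with 209, 13 and 11 UMIs. Its counts were uneven in the Female library, where the median positive cell held 3, the highest 44, and the 3 highest together 94 of the 209 UMIs. Scaled to CPM, counts per 1e6 UMIs of the summed members, Il17a stood at 1122, 530 and 256 and Tcrg-C1 at 521, 285 and 93.3. Both were highest in the Female library and lowest in Male 2. In Male 2, however, 1 member of 31499 UMIs held most of the 42892 UMIs of all 11 members. Without it the Male 2 values were 614 CPM for Il17a and 351 CPM for Tcrg-C1, both above Male 1. For genes given by library, values without this cell are added where they change the order of members and other T cells. Means ± SD include this cell, and leaving it out also changes that order in Male 2 for Lck, Id2, Il7r, Ltb, Fos and Junb.

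**Figure D1:**
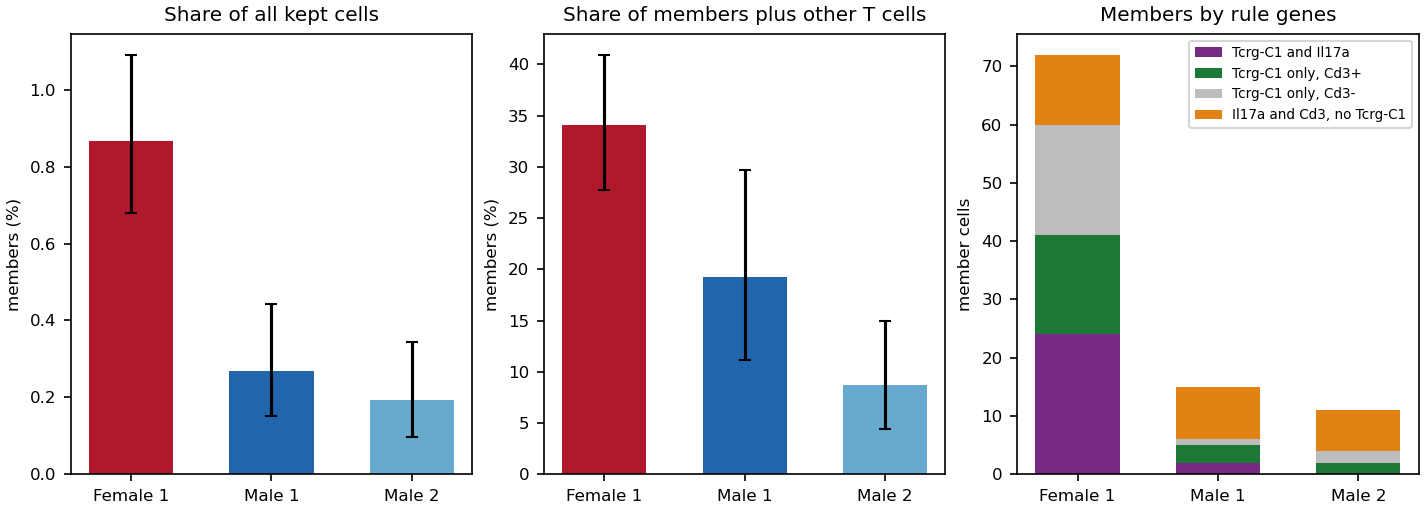
Members by library: numbers of member cells split by the rule genes, and members as a share of kept cells and of T cells with exact 95% binomial intervals. The Female library holds 72 members and the Male libraries 15 and 11, and the Female members include 24 with both Tcrg-C1 and Il17a.

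Just outside the rule, 21 of 91 kept cells with Tcrg-C1 held a UMI of Epcam, Col1a1, Pecam1 or Csf1r and were left out, 20 of them in the Female library. Of 77 kept cells with Il17a, 15 held such a UMI and 8 lacked a Cd3 UMI. In the epithelial, fibroblast, endothelial and myeloid gates, where these genes are not expected, Tcrg-C1 was seen in 0.320%, 0.0471% and 0% of cells and Il17a in 0.220%, 0.0471% and 0.0573% of Female 1, Male 1 and Male 2, at median depths of 3593, 2282 and 2999 UMIs. A single UMI of either gene was therefore also found in cells outside the lymphoid gates. In uncalled barcodes of 10 to 100 UMIs, a description of free RNA, Tcrg-C1, Il17a, Cd163l1, Cd3e and Cd3g were each at 0 UMIs in all 3 libraries. Trdc had 1 UMI in the Female library (14.7 CPM) and Cd3d had 1 in Male 2 (5.79 CPM).

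The label of γδ and Il17a-expressing T cells held for part of the members. Trdc, which the rule did not read, was found in 50 of 98 members, in 36 of 72, 9 of 15 and 5 of 11 by library. Cd163l1 (encoding SCART1, a scavenger receptor of IL-17-producing γδ T cells) was found in 27, and either gene in 59. A Cd3 UMI was present in 74 members. The remaining 24 members comprise 22 with Tcrg-C1 and no Il17a, and 2 with both genes.

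The members fell into 4 subgroups by the genes of the rule, and these differed in what else they held. Both Tcrg-C1 and Il17a were held by 26 members (24 Female, 2 in Male 1), and Trdc was present in 20 of them. Il17a with Cd3 but no Tcrg-C1 was held by 28 members (12, 9 and 7 by library), of which 19 had Trdc. Tcrg-C1 with Cd3 and no Il17a was held by 22 members (17, 3 and 2), of which 9 had Trdc. Of the other 13 cells of this subgroup, 8 held Trac or Ccl5. The last 22 members (19, 1 and 2) had Tcrg-C1 with neither Il17a nor Cd3, and Trdc was seen in 2 of them.

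The 22 members without Cd3 and Il17a went against the T cell label. Gata3 (a transcription factor of type 2 lymphocytes) or Il1rl1 (the IL-33 receptor) was present in 16 of the 22, and Gata3, Il1rl1 or Areg (amphiregulin, a growth factor made by type 2 innate lymphoid cells) in 19. In the Female library Gata3 was found in 13 of 19, Areg in 12 of 19 and Il1rl1 in 11 of 19 of these cells. All 25 Il1rl1 UMIs of the members lay in these 11 cells. Il13 was at 0 UMIs in all members and Il5 at 1. Over all members, the 7 ILC markers summed to 757, 285 and 93.3 CPM in Female 1, Male 1 and Male 2, against 423, 37.8 and 28.4 CPM in the other T cells. The counts of called genes are therefore also given for the 74 members with a Cd3 UMI. Fold changes for these members are given only for Trdc, Cd163l1, Maf, Ramp1, Capg, S100a4, Zfp36l1 and Areg.

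**Figure D2:**
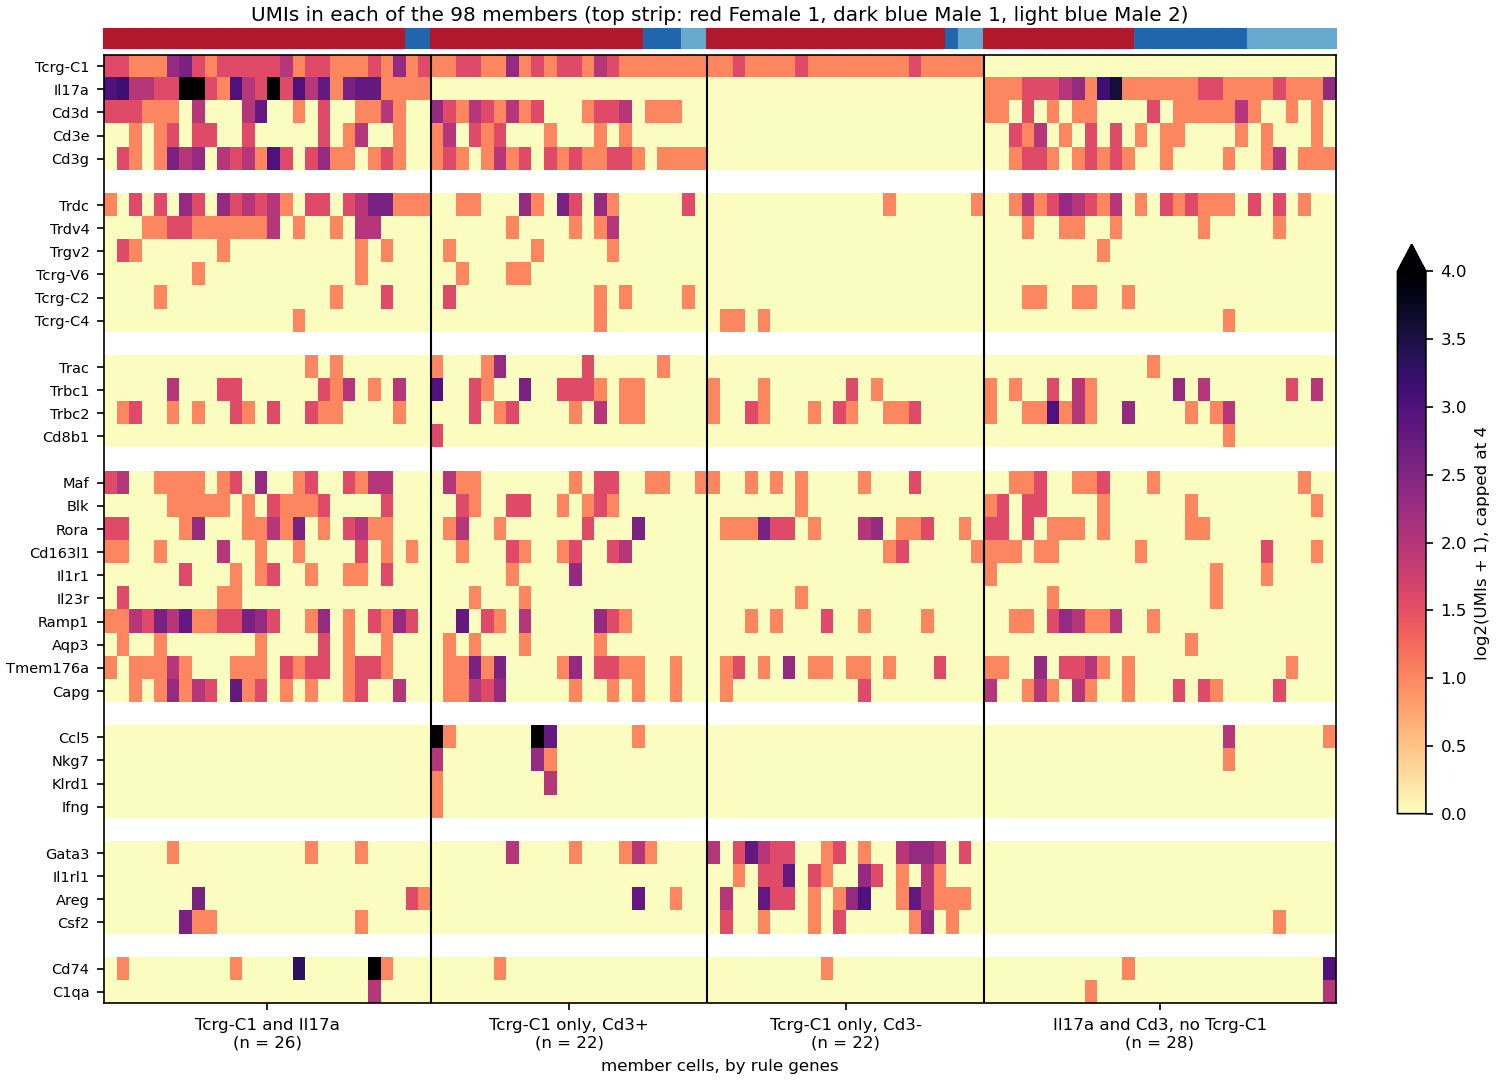
UMIs of rule genes, receptor chains and programme genes (rows, log2 of UMIs + 1) in each of the 98 members (columns), grouped by the rule genes with the library in the top strip. Trdc and Cd163l1 lie mostly in the 3 subgroups with Cd3 or Il17a, and Il1rl1 appears in the subgroup without Cd3 and Il17a, where 11 Female cells hold it.

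Whole transcriptomes were compared by summing UMIs per library over the members, over the other T cells and over cells gated as NK cells or ILCs (257, 14 and 15 cells), and testing with edgeR's quasi-likelihood test with the library as a block. Against the other T cells, 17 of 1063 tested genes were higher in members (1.6%) and 17 were lower (1.6%) at an adjusted p under 0.05, or 3.2% in either direction. The genes that chose the cells are left out of these counts. List counts against other T cells below are to be read beside these shares. DESeq2 called 2 higher and 8 lower, and scaling by total UMIs called 2 and 9 and shifted the median log2 fold change of all genes from -0.01 to -0.13. Without the Female library 1 gene was higher and 1 lower, without Male 1 the counts were 10 and 15, and without the 3 members above 10000 UMIs they were 22 and 34. With the 74 members that held a Cd3 UMI they were 20 and 14. Depth was close to that of the members within each library: the other T cells held a median of 2279, 1397 and 1054 UMIs.

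**Figure D3:**
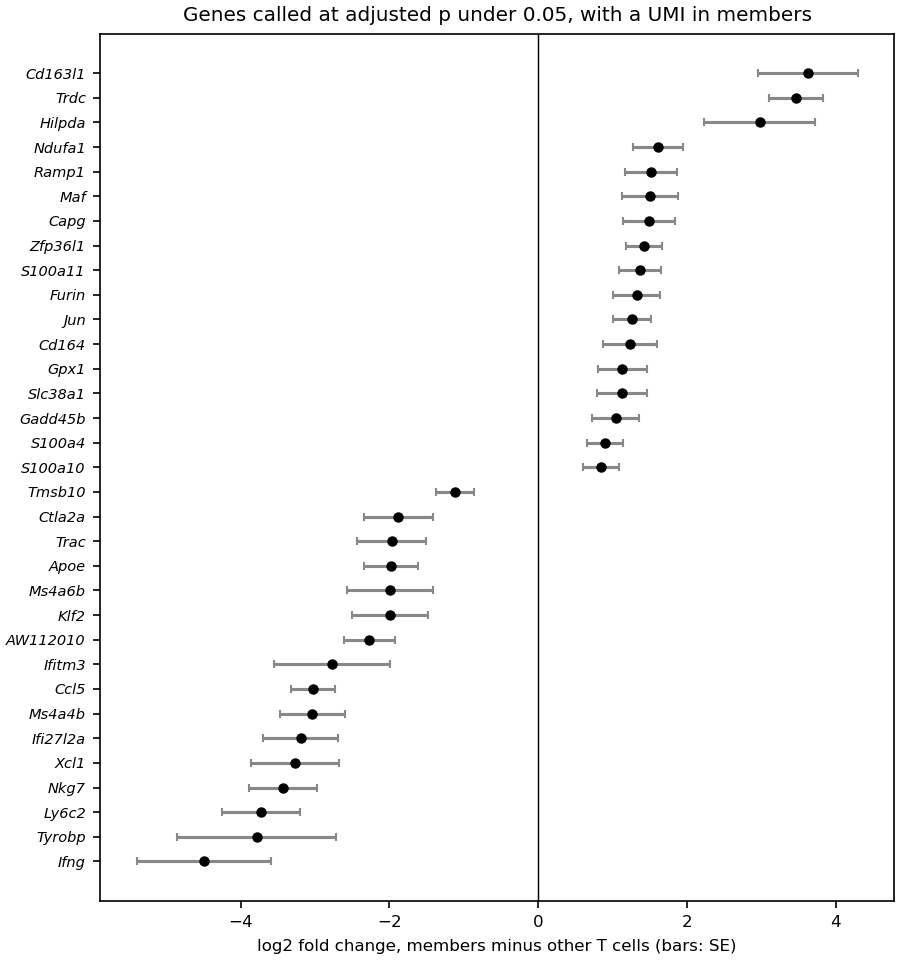
Log2 fold changes of summed members over summed other T cells (points) with their SE (bars) for genes called by edgeR with at least 1 UMI in members. Cd163l1 (3.62) and Trdc (3.47) lie farthest to the right and Ifng (-4.50) farthest to the left; Cd28, at 0 UMIs in members, is not drawn.

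Among γδ receptor chains, Trdc was higher in members than in other T cells in every library. Trdc stood at 462, 449 and 187 CPM in the members of Female 1, Male 1 and Male 2, and at 47.6, 30.3 and 17.1 CPM in the other T cells. The lowest member sum was above the highest sum of the other T cells. The log2 fold change was 3.47 ± 0.36 (SE; edgeR, adjusted p = 1.86e-13), and it was 3.74 for members with a Cd3 UMI, 3.43 without the 3 deepest members and 4.07 without the Female library. After thinning to 1000 UMIs, Trdc was found in 33.3%, 40% and 42.9% of members against 3.68%, 3.39% and 2.78% of other T cells. In the non-lymphoid gates it was found in 0.441%, 0.0471% and 0.115% of cells. The other 13 chains of the list had too few UMIs for the test.

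Among the untested chains, the δ variable gene Trdv4 had 33 UMIs in 23 of 72 Female members and 1 UMI in each Male library, against 2, 3 and 1 UMIs in the other T cells. It was present in 15 of the 24 Female members with both rule genes and in none of the 19 without Cd3 and Il17a. It was also seen in 10 of 257 Female NK- and ILC-gated cells. Tcrg-V6, a γ variable gene that pairs with it in IL-17-producing γδ T cells of mucosal tissue, had 5 UMIs in 5 Female members, 0 in the other T cells and 1 in the NK- and ILC-gated cells. Trgv2 had 10 UMIs in 9 Female members and 5 in the other T cells. Tcrg-C2 had 14 UMIs in 12 members, Tcrg-C4 had 6 UMIs in 6 and Tcrg-C3 had 0. As 3′ reads rarely reach the variable segment, the missing variable UMIs set no limit on chain usage. The last 60 bases of both named variable genes in the reference are shown, as they mark the receptor seen most and its usual partner, with the codon of the conserved cysteine in capitals (GENCODE M21, mm10).
Tcrg-V6 (chr13:19190870-19190929, + strand): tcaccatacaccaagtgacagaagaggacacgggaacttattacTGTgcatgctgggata
Trdv4 (chr14:54075456-54075515, + strand): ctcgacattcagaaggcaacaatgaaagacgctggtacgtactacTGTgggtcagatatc

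Among αβ receptor genes, Trac fell in members and the β constant genes did not pass the test. Trac, the α constant gene, was at 53.7, 81.6 and 0 CPM in the members of Female 1, Male 1 and Male 2, and at 222, 53.0 and 182 CPM in the other T cells. It was lower in 2 of 3 libraries and higher in Male 1, where it rested on 2 UMIs. The log2 fold change was -1.97 ± 0.46 (edgeR, adjusted p = 0.00241), and 8 of 98 members held Trac against 85 of 318 other T cells. Of the 12 Trac UMIs in members, 9 lay in the Tcrg-C1 subgroup with Cd3 and no Il17a. Cd4 was at 0 UMIs in members, and Cd8b1 at 3 UMIs in 2 members against 70 UMIs in 42 other T cells. Of the 6 genes of this list 3 were tested, 1 was lower, and the median log2 fold change was -0.50 against -0.01 over all genes tested. Trbc1 and Trbc2, the β constant genes, were at 231 ± 98.8 and 170 ± 156 CPM (mean ± SD, n = 3) in members and 171 ± 96.5 and 246 ± 171 CPM in other T cells, and neither passed the test.

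Of 14 receptor signalling genes 11 were tested, and 1 was called. Cd28, the costimulatory receptor of αβ T cells, was at 0 UMIs in all 98 members and at 172, 75.6 and 96.7 CPM in the other T cells. With 3 UMIs as the floor over all members, it was at least 11.3-fold lower (edgeR, adjusted p = 1.72e-06). Lck and Cd2 stood at 13.1 ± 11.9 and 20.8 ± 20.4 CPM in members against 61.3 ± 43.1 and 76.3 ± 34.8 CPM in other T cells, with adjusted p of 0.115 and 0.0782. Cd247 and Zap70 stood at 66.6 ± 60.5 and 70.1 ± 65.2 CPM against 29.4 ± 18.4 and 33.6 ± 30.4 CPM and did not pass the test either. The median of the list was -0.11.

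Of the type 17 programme, 3 lists held 16 tested genes, of which 5 rose in members and none fell. Over all 1063 tested genes 17 rose (1.6%), and the lists were chosen with earlier results of these data known. Of 10 transcription factors and kinases 3 were tested, and 1 rose (median log2 fold change 0.71). Maf, the gene of c-MAF, was at 285, 122 and 46.6 CPM in members and 89.8, 45.4 and 39.8 CPM in other T cells, higher in each library. The Maf member sums rested on 53, 3 and 2 UMIs, so both Male values are weak. Without the Male 2 member of 31499 UMIs, which held no Maf, the Male 2 value was 176 CPM. Its log2 fold change was 1.51 ± 0.38 (edgeR, adjusted p = 0.00521). Rora and Id2, expressed by many lymphocytes, stood at 167 ± 201 and 153 ± 114 CPM against 112 ± 93.6 and 157 ± 123 CPM and did not pass. Blk, a kinase of IL-17-producing γδ T cells, had 36, 1 and 1 UMIs in members against 8, 1 and 2 in other T cells, and 0 in the NK- and ILC-gated cells. Sox13, a factor needed for part of these cells, had 7 UMIs in 7 Female members, none in the subgroup without Cd3 and Il17a. Blk and Sox13 were below the filter on low counts and were not tested.

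Of 14 surface receptors 7 were tested and 2 rose (median 0.98). Cd163l1 stood at 166, 81.6 and 93.3 CPM in members, resting on 31, 2 and 4 UMIs, and at 0, 53.0 and 5.69 CPM in other T cells. All 3 member sums were above all 3 sums of other T cells, though in Male 1 the gene was seen in 2 of 15 members and 7 of 63 other T cells, or 13.3% and 11.1%. The log2 fold change was 3.62 ± 0.67 (edgeR, adjusted p = 3.65e-05), and it was 3.67 for members with a Cd3 UMI. Ramp1, a coreceptor for the neuropeptide CGRP, was at 494, 122 and 0 CPM in members and 145, 53.0 and 22.7 CPM in other T cells. It was higher in all but Male 2, and the log2 fold change was 1.52 ± 0.35 (edgeR, adjusted p = 0.00148). Il7r and Cxcr6, receptors of IL-7 and CXCL16, stood at 251 ± 208 and 193 ± 117 CPM against 165 ± 81.8 and 106 ± 69.9 CPM and did not pass. The cytokine receptors that define these cells were sparse: Il1r1 had 19 UMIs in 13 members and 3 UMIs in other T cells, Il23r had 9 and 2, and Ccr6 had 1 and 5.

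Of 10 further genes known from IL-17-producing γδ T cells 6 were tested and 2 rose (median 1.46). Capg, an actin-capping protein, was at 317, 245 and 46.6 CPM in members and 108, 83.2 and 17.1 CPM in other T cells. S100a4, a calcium-binding protein, was at 1219, 816 and 187 CPM and 526, 477 and 227 CPM. Capg was higher in every library, on 59, 6 and 2 member UMIs, and S100a4 in Female 1 and Male 1. In Male 2 the member of 31499 UMIs held no UMI of either gene, and without it Capg stood at 176 CPM and S100a4 at 702 CPM, both above the other T cells. Their log2 fold changes were 1.49 ± 0.35 and 0.90 ± 0.24 (edgeR, adjusted p = 0.00254 and 0.00938). For members with a Cd3 UMI, the log2 fold changes of Maf, Ramp1, Capg and S100a4 were 1.77, 1.76, 1.83 and 1.10. Serpinb1a stood at 94.5 ± 26.4 CPM against 22.7 ± 9.98 CPM and missed the threshold (adjusted p = 0.0639). Tmem176a was found in 46 of 72 Female members and 14 of 139 Female other T cells, but in 1 member of each Male library, and was not tested. Of Tmem176a, 15 UMIs lay in 10 members of the subgroup without Cd3 and Il17a, so it was not limited to members with Trdc. Without the Female library, Maf, Ramp1, Capg and Cd163l1 could not be tested for lack of UMIs, and S100a4 was no longer called at a log2 fold change of 0.73 (edgeR, adjusted p = 0.973).

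**Figure D4:**
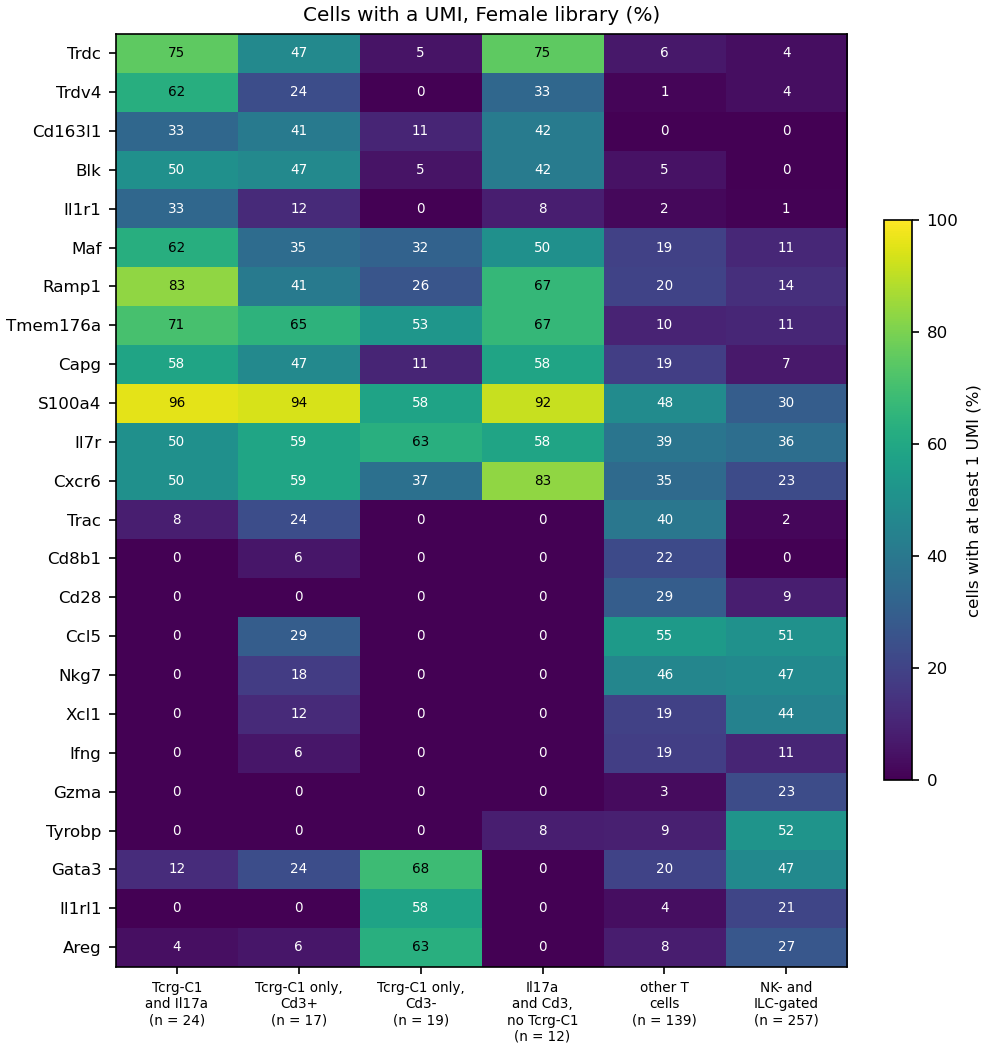
Percent of cells with at least 1 UMI of 24 genes (rows) in the 4 subgroups of Female members, the Female other T cells and the Female NK- and ILC-gated cells (columns). Trdc, Trdv4 and Blk are frequent in the subgroups with Cd3 or Il17a, Gata3, Il1rl1 and Areg in the subgroup without, and Ccl5 in the other T cells (54.7%).

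Il17f, the neighbour of Il17a on chromosome 1, was seen in 2 Female members with 4 UMIs and in no other lymphoid cell, while Il22 and Il21 were at 0.

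Of 20 cytokine and chemokine genes 10 were tested, 3 fell and none rose (median -0.17). Ifng, the type 1 cytokine, was at 5.37, 0 and 0 CPM in members and at 108, 113 and 119 CPM in other T cells, with no overlap. Its log2 fold change was -4.50 ± 0.91 (edgeR, adjusted p = 0.000188), resting on 1 UMI in members. Xcl1, a chemokine for cross-presenting dendritic cells, was at 21.5, 0 and 0 CPM against 169, 98.3 and 188 CPM, again with no overlap (-3.27 ± 0.60, edgeR, adjusted p = 2.55e-05). In members, 3 UMIs stood for 122 CPM in Male 1 and 69.9 CPM in Male 2, or 263 CPM there without its deepest member. The Male zeros of Ifng and Xcl1 thus lay near the limit of detection and add little to the Female difference. Ccl5 was at 274, 122 and 23.3 CPM against 2048, 567 and 1080 CPM, lower in each library (-3.03 ± 0.29, edgeR, adjusted p = 4.55e-15). All 51 Female Ccl5 UMIs of the members lay in 5 cells of the Tcrg-C1 subgroup with Cd3 and no Il17a.

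Areg, Csf2, Tnf and Ltb stood at 162 ± 123, 55.4 ± 41.3, 63.0 ± 56.0 and 256 ± 174 CPM in members and did not pass the test against other T cells. Areg had a log2 fold change of 0.90 with all members and -0.90 with members holding a Cd3 UMI. This turn goes with the cells without Cd3 and Il17a, which held 37 of the 48 Female Areg UMIs. Csf2, the gene of GM-CSF, had 12 of its 21 member UMIs in that subgroup and 8 in the members with both rule genes.

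Cytotoxic and type 1 genes were low in members. Of 15 such genes 3 were tested, and all 3 fell: Ccl5, Nkg7 and Ly6c2 (-3.73), a surface antigen of effector T cells (median -3.43). Nkg7, a granule protein, was at 42.9, 40.8 and 0 CPM in members and 465, 113 and 284 CPM in other T cells. The 2 ranges did not overlap, though the member sum of Male 1 rested on 1 UMI. The log2 fold change was -3.43 ± 0.45 (edgeR, adjusted p = 3.62e-09). Gzma, Prf1, Tbx21 and Fasl were at 0 UMIs in all members. The same direction was called in the members with Cd3, with Il17a and without Gata3 or Il1rl1, where 3 genes of the list fell in each.

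**Figure D5:**
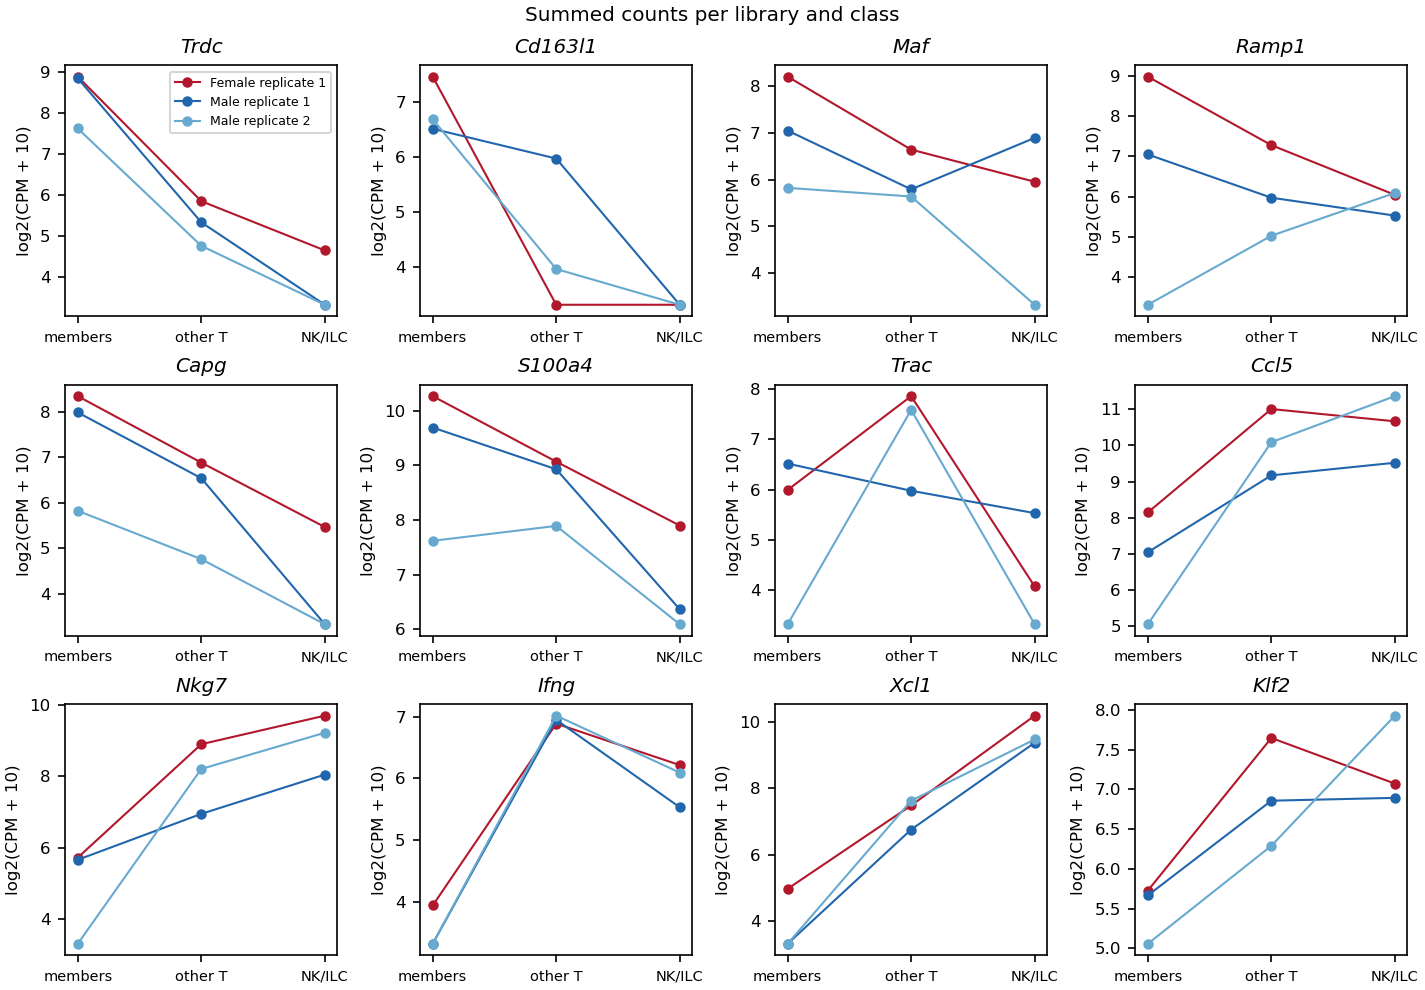
Level of 12 genes as log2(CPM + 10) in summed members, other T cells and NK- and ILC-gated cells (x axis), with 1 line per library. Trdc and Cd163l1 are highest in members in each library, and Ccl5, Nkg7, Ifng and Xcl1 are lowest in members in each library.

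Of 14 homing and residence genes 6 were tested and 1 fell (median 0.21). Klf2, a factor of recirculating T cells, was at 42.9, 40.8 and 23.3 CPM in members and 190, 106 and 68.2 CPM in other T cells, without overlap (-1.99 ± 0.51, edgeR, adjusted p = 0.00632). Without the Male 2 member of 31499 UMIs the single Klf2 UMI of Male 2 stood for 87.8 CPM, above the other T cells of that library. Cd69, a marker of activation and of resident cells, stood at 262 ± 272 against 238 ± 105 CPM and did not pass. All 11 immediate early genes were tested, and 1 rose (median 0.69). In the Female library, 643 of their 1338 member UMIs lay in the subgroup without Cd3 and Il17a, where they summed to 14629 CPM. They summed to 5842 CPM in members with both rule genes, 4012 with Tcrg-C1 and Cd3 alone, and 4366 with Il17a and Cd3 alone. The Female other T cells stood at 4003 CPM. Jun was at 939, 571 and 303 CPM in members and 441, 250 and 114 CPM in other T cells, higher in each library (1.27 ± 0.26, edgeR, adjusted p = 0.000188). Fos and Junb stood at 583 ± 334 and 1218 ± 808 CPM against 353 ± 82.1 and 761 ± 302 CPM (edgeR, adjusted p = 0.086 for both). In Male 2 they were at 210 and 326 CPM in members, below the 279 and 569 CPM of other T cells. Without the member of 31499 UMIs they were at 790 and 1141 CPM there. These genes can also respond to tissue dissociation, whose part was not tested. A UMI of any of 8 cell cycle genes was present in 3 members and 31 other T cells, and none of these genes could be tested. Of 10 checkpoint receptors 1 was tested and was not called.

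Outside the lists, 10 genes rose and 8 fell. Zfp36l1, an RNA-binding protein that promotes mRNA decay, was at 1133, 734 and 163 CPM in members and 362, 227 and 182 CPM in other T cells, higher in Female 1 and Male 1 (1.42 ± 0.25, edgeR, adjusted p = 8.44e-06). Its log2 fold change was 1.34 for members with a Cd3 UMI. Without the Male 2 member of 31499 UMIs, which held none of its 7 UMIs, Zfp36l1 was at 614 CPM in Male 2 and so higher there too. Hilpda, a lipid droplet protein induced in hypoxia, was at 91.3, 40.8 and 93.3 CPM against 15.9, 0 and 11.4 CPM, higher in each library without overlap (2.98 ± 0.75, edgeR, adjusted p = 0.00521). Its member sums rested on 17, 1 and 4 UMIs, and it was called in 7 of the 11 alternatives that tested it. S100a11, Ndufa1, Furin, S100a10, Gpx1, Cd164, Slc38a1 and Gadd45b rose with log2 fold changes between 0.85 (S100a10) and 1.61 (Ndufa1). Of these, Slc38a1, Gadd45b, Gpx1, S100a10 and Cd164 were called in only 3, 4, 5, 7 and 8 of the 17 alternatives. Those that fell were Ms4a4b (-3.03), Ifi27l2a (-3.19), Ifitm3 (-2.77), AW112010 (-2.27), Ms4a6b (-1.99), Apoe (-1.98), Ctla2a (-1.88) and Tmsb10 (-1.12). Ifi27l2a and Ifitm3 are interferon-induced, and Apoe is an apolipoprotein of macrophages. Apoe stood at 177, 0 and 0 CPM in members and 526, 37.8 and 557 CPM in other T cells, beside 8 macrophage markers that summed to 69.8, 0 and 69.9 CPM and 159, 30.3 and 216 CPM. The part of macrophage RNA in the Apoe result was not tested.

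By share of cells after thinning to 1000 UMIs, the genes whose pattern was most like that of the members were Trdc, Zfp36l1, S100a11, Jun and S100a10. Their shares of cells with a UMI were higher in members than in other T cells by a mean over 3 libraries of 35.4, 31.3, 25.2, 21.8 and 21 percentage points. S100a11 was higher in 2 of 3 libraries and the other 4 in all 3. Male 2 gave 7 members deep enough for this measure.

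Against the NK- and ILC-gated cells, which share the member sums with the first comparison, 13 of 300 tested genes were higher in members (4.33%) and 11 were lower (3.67%), or 8% in either direction. Without the Female library the counts were 0 and 2 (38 genes at an unadjusted p under 0.05), and without Male 1 they were 3 and 12. Trdc was at 15.1, 0 and 0 CPM in the NK- and ILC-gated cells, below every member sum (5.38 ± 0.79, edgeR, adjusted p = 7.96e-05). S100a4 was at 228, 72.5 and 58.3 CPM there against 1219, 816 and 187 CPM in members, with a log2 fold change of 2.95 ± 0.38 (edgeR, adjusted p = 2.89e-05). S100a11, Zfp36l1 and S100a6 also rose, with 1.56, 1.34 and 1.33. Of the 13, 7 were tear-product genes, out of 30 tested (median 1.16), and 1 has no gene name. Tear-product UMIs made up 37.5%, 66.6% and 82.4% of the members' UMIs and 32.6%, 52.2% and 52.8% of those of the NK- and ILC-gated cells, and the part of free RNA in these 7 calls was not tested. Without the 3 members above 10000 UMIs the tear-product share of members was 33.8%, 66.6% and 63.9%, and the counts were 4 higher and 9 lower.

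Of the genes that fell, 4 of the 4 tested cytotoxic genes did so (median -4.00). Part of the comparison cells were chosen by the NK cell genes Ncr1, Klrb1c and Klra8. Lower NK cell and cytotoxic genes in members therefore describe this choice of cells and are no independent result about the members. Gzma, the granzyme A gene, was at 0 UMIs in members and 449, 725 and 816 CPM in the NK- and ILC-gated cells, at least 39.5-fold lower with 3 UMIs as the floor over all members. Tyrobp and Fcer1g, adaptors of NK cell receptors, were at 5.37, 0 and 0 CPM and 48.3, 0 and 0 CPM in members, against 859, 435 and 1049 CPM and 747, 544 and 1108 CPM. Both were lower in each library without overlap (log2 fold changes -7.12 and -4.14, edgeR, adjusted p = 1.12e-06 and 2.89e-05). The NK- and ILC-gated cells also held mast cell markers, at 279, 0 and 0 CPM, and macrophage and monocyte markers, at 47.9, 1269 and 525 CPM. The part of such cells in the Tyrobp and Fcer1g results was not tested. Xcl1 (-5.68), Ccl5 (-2.70), Nkg7 (-3.91), Ccl4 (-1.98), Klre1 (-4.95), Klrd1 (-4.10), AW112010 (-3.05) and Cxcl2 (-2.92) fell as well. Cxcl2 stood at 64.3, 3264 and 1166 CPM in the NK- and ILC-gated cells, where the 6 dendritic cell and antigen presentation markers summed to 313, 4243 and 3848 CPM. The part of such RNA in the Cxcl2 result was not tested. The Male gates held 14 and 15 cells. With the members that held a Cd3 UMI the counts were 9 and 8.

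Markers of other cell types were present to different degrees in the members, beside the ILC markers given above. The 7 NK markers summed to 64.4, 0 and 0 CPM with Ncr1 at 0 UMIs, and of 2 tested against other T cells Tyrobp fell (-3.79 ± 1.07, edgeR, adjusted p = 0.0218). The 3 mast cell markers were at 0, the 4 B cell markers summed to 26.8, 0 and 0 CPM, and the 5 fibroblast and 4 endothelial markers summed to at most 21.5 CPM. The 4 epithelial markers summed to 64.4, 204 and 93.3 CPM. The 6 dendritic cell and antigen presentation markers summed to 623, 0 and 373 CPM against 396, 348 and 512 CPM in other T cells, with a class II UMI in 17 members and at least 10 such UMIs in 3. One of these 3 was the Male 2 member of 31499 UMIs, which also held 3 C1qa UMIs. Scrublet gave high doublet scores to 2, 1 and 1 members (2.78%, 6.67% and 9.09%), against 7.79%, 5.14% and 5.51% of all kept cells. Against other T cells, no gene was called among 3 tested ILC, 1 macrophage, 4 dendritic cell, 1 epithelial, 35 tear-product and 81 ribosomal protein genes.

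The IL-17 pathway was divided among the gates of the gland. Upstream, Il1b was at 975 ± 226 CPM (mean ± SD, n = 3 libraries) in the myeloid gate and 22.7 ± 23.3 CPM in members. Il12b, which encodes the chain shared by IL-12 and IL-23, was at 92.5 ± 58.0 CPM in the myeloid gate, whereas Il23a, the chain particular to IL-23, was at 1.52 ± 1.5 CPM. The receptor gene Il17ra was at 27.9 ± 24.2 CPM in members, 19.1 ± 9.91 in the myeloid gate and 9.81 ± 5.66 in the fibroblast gate. Its partner Il17rc was at 8.74 ± 5.71 CPM in fibroblasts, 6.52 ± 2.48 in endothelium and 5.42 ± 1.21 in epithelium, and at 0 in members. Neighbouring values in both orders lay within their SDs. In members the 4 receptor and signalling genes of IL-17 together held 10, 1 and 0 UMIs in Female 1, Male 1 and Male 2. The Il17ra mean of members therefore rested on few UMIs.

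Among genes known to respond to IL-17, Cxcl2 was at 3640 ± 1318 CPM and Cxcl1 at 215 ± 156 CPM in the myeloid gate. Cxcl1 was at 83 ± 26.2 CPM in fibroblasts and 94.0 ± 38.5 CPM in endothelium, which did not differ beyond their SDs. Il6 was highest in fibroblasts at 50.4 ± 22.9 CPM, Csf3 in endothelium at 37.6 ± 32.5 CPM and Lcn2 in epithelium at 43.8 ± 19.1 CPM. Nfkbiz was at 538 ± 298 CPM in the myeloid gate and 116 ± 113 CPM in members. These levels were not tested between gates, and all of these genes also respond to other signals.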

How the data were processed

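The study measured RNA in single cells of LGs from 3 libraries, 1 Female and 2 Male, each a pool of 3 mice. The authors deposited raw UMI counts for each gene in each barcode, made with Cell Ranger 6.1.2 on mm10 according to the submitters' processing notes, before their correction for free RNA and their doublet removal. The annotation release is not given in the sources used here. Each pool was of different mice, so the spread between libraries includes that between pools.

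The study's limits on UMIs, genes and mitochondrial share were applied. Its exclusion of cells by contamination score and by doublet scores was not repeated, so more cells were kept here than in the study. The other gates required 0 UMIs of Epcam, Col1a1, Pecam1 and Csf1r, 0 of Tcrg-C1 and Il17a, and either a Cd3 UMI (other T cells) or no Cd3 UMI with at least 2 UMIs of Ncr1, Klrb1c and Klra8, or at least 2 of Gata3, Il1rl1 and Il7r with Ptprc (NK- and ILC-gated). Tissue gates took Epcam, Pecam1 or Csf1r at 1 UMI or Col1a1 at 2, with 0 of the other 3. Counts were summed per library and class and tested with edgeR 4.0.16 in R 4.3.3 (TMM, filterByExpr, quasi-likelihood test, library as the replicate block, Benjamini-Hochberg adjustment, threshold 0.05). The block pairs the 2 sums of 1 cell suspension. Doublets were scored with scrublet in scanpy 1.11.5 (highest scores marked, at 0.8% per 1000 barcodes) and kept. Summed members held 186281, 24521 and 42892 UMIs.

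On simulated counts for the comparison with other T cells (1313 genes), 57% of 4-fold and 100% of 16-fold changes were called. For the comparison with NK- and ILC-gated cells (429 genes), 81.2% and 100% of those tested were called. In these simulations 5 and 8 unchanged genes were called too. Counts were drawn with a fixed dispersion around a pooled gene profile, the same for every library, and no single cell dominated a sum. The rates were not measured for libraries that differ as these do. The changed genes were drawn from those with at least 100 UMIs over both classes. These rates therefore do not cover genes with fewer UMIs, such as Cd163l1 and Ifng in the comparison with other T cells. Shares have exact Clopper-Pearson 95% intervals, and a gene at 0 was set to a floor of 3 UMIs over the group. Every gene of the lists was described by group. Outside the lists, up to 12 called genes in each direction were named per comparison, if they moved alike in the Female and at least 1 Male library. Tear-product, ribosomal, mitochondrial and unnamed genes were counted only. The members and lists were chosen with earlier results of these data known. Male and Female labels matched Xist and 4 Y-linked genes in every library. One gene of the lists is not reported here.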

Additional observations from a re-analysis of the deposited data

How the results depend on the processing

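Called genes are given as higher and lower in members. Against other T cells, where 17 and 17 were called, the counts moved by over 1.5 times to 2 and 8 with DESeq2, 2 and 9 with total UMIs as the scale, 3 and 10 with no filter on low counts, 9 and 10 with cells thinned to 1000 UMIs, 4 and 10 with Tcrg-C1 members alone, 10 and 9 with Il17a members alone, and 1 and 3 without the replicate block that pairs both sums of a library. Without the 3 members above 10000 UMIs the lower count rose to 34. Leaving out 1 library gave 1 to 23 higher and 1 to 18 lower genes. Against NK- and ILC-gated cells, where 13 and 11 were called, DESeq2 gave 2 higher, total UMIs 7 (with 14 lower, the median of all genes moving from -0.0045 to -0.72), no filter 30 lower, thinning 7 lower, no high scrublet scores 5 higher, no tear-product genes 2 and 7, Tcrg-C1 members 8 higher, no replicate block 0 and 4 (24 genes at an unadjusted p under 0.05), no members above 10000 UMIs 4 higher, and Il17a members 2 and 2. Leaving out 1 library gave 0 to 12 and 2 to 14. The settings on members above 10000 UMIs, Il17a members and Gata3 or Il1rl1 were chosen after seeing the data. With Cd3 required, the Female share was 0.639% of kept cells and 27.6% of T cells. With thinning before the rule, the share in Male 1 was 0.113% and 11.1%.

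All 34 named called genes kept their sign in each of the 17 alternatives against other T cells that tested them (9 for Tyrobp, 10 for Ifitm3, 11 for Hilpda, 13 for Ms4a6b and 14 to 17 for the others), and Trdc, Ccl5 and Cd28 were called in each alternative that tested them. Against NK- and ILC-gated cells all 16 kept their sign in the 8 to 17 alternatives that tested them, and S100a4 and Trdc were called in each of theirs. A kept sign was not a kept call: 24 of the 34 and 11 of the 16 genes were called in most of the 17 alternatives. The fits without the Female library tested 338 and 185 genes. The cause of the other moves was not tested. With 15 and 11 Male members, a gene absent from them was not detectable at this depth rather than absent. No paired analysis of the sexes was possible because only 1 Female library was analysed here.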
